A study of Homo sapiens with 12 samples.

Results

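Receptor tyrosine kinases are membrane receptors through which growth factors drive survival, division and movement of melanoma cells. The genes considered here were 10 receptors named by symbol: MET, KIT, AXL, TYRO3, EGFR, ERBB2, ERBB3, FGFR1, IGF1R and PDGFRB. They were chosen with earlier results of these data known. Rows with these symbols were taken from the table of 12616 genes, which listed 8 of the 10. EGFR and PDGFRB are not analysed here. The RNA came from MeWo and SkMel28, human cutaneous melanoma lines that carry a hairpin against the transcription factor MITF which is switched on by doxycycline (Dox). Each line was grown without Dox (0 µg/ml, control) or with 1 µg/ml Dox, and both doses were sampled after 8 days. There were 3 libraries in each of the 4 groups. Per the labels the medium was EMEM for MeWo and RPMI for SkMel28, each with 10% FBS, so line and medium cannot be told apart. All 4 groups carry the hairpin, and no line without it received Dox, so the hairpin and the drug cannot be told apart either. Whether each hairpin line was a clone or a pool is not given in the sources used here.

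A receptor tyrosine kinase pairs with a second receptor when its ligand binds, and the kinase domains then phosphorylate each other on tyrosines. Adaptor proteins dock on these sites and pass the signal to the RAS and PI3 kinase routes, while phosphatases, ubiquitin ligases and the Sprouty family turn it down. In the melanocyte lineage, KIT and its ligand guide precursor cells in development, MET answers hepatocyte growth factor, and ERBB3 answers neuregulins. AXL is known as a receptor of dedifferentiated melanoma with low MITF.

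MITF binds the E-box CACGTG and the related CATGTG core, and the promoter windows of the members were read for these letters and for the AP-1 motif TGACTCA on both strands. RefSeq windows (GRCh38.p14, 250 bases before to 50 after a start) were used for 6 of the 8 listed members, which had 8 windows, and 2 windows held a motif. They are shown because they belong to MET and AXL, members that changed in opposite directions in MeWo, with the motif in capitals. MET holds CACGTG with its first base 4 bases after the start (chr7:116671946-116672245, + strand). The second of 2 windows of AXL holds CACATG, the reverse of CATGTG, with its first base 79 bases before the start (chr19:41226505-41226804, + strand).
MET: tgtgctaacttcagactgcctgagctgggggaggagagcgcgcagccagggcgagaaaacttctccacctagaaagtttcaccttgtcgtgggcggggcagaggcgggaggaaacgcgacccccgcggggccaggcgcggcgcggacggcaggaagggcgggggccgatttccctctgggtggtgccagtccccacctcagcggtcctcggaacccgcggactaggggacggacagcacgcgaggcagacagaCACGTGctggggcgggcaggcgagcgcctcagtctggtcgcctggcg
AXL: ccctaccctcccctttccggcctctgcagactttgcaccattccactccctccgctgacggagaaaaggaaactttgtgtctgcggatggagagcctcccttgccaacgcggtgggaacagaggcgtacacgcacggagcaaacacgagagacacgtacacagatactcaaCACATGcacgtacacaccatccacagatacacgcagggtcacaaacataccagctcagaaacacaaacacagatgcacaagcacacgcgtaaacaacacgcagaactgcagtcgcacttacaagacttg
Of the bases, 69.3% in the MET window and 53.7% in the AXL window were G or C. Among 35116 windows of the same length, 7.26% held CACGTG, 11.1% held CATGTG or CACATG, and 4.95% held the AP-1 motif. The share with any of these motifs was not counted, so no excess is read from the 2 of 8 windows. No motif was found in the windows of KIT, TYRO3, ERBB2 and IGF1R. The windows are a description of letters, and binding was not measured in these libraries. From binding data in another melanoma line, the study reports that neither MITF nor its relatives bind AXL. It counts MET and KIT among the targets and states that MITF and its relatives bind both. In mouse melanoma cells without MITF it reports both as moderately lower. It reports AXL as higher in such cells without MITF and its relative TFEB, but not in those also without TFE3.

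Values are reads scaled to a common effective library size, from sequencing of transcript 3′ ends. The libraries held 2568187 to 3714608 reads, of which 5.69 to 8.55% were spike-in RNAs, and 1 read is worth a value of 0.278 to 0.389. A group in which no library holds more than 3 reads is called at the floor, which lies at a value of up to 1.17 and covers counting error only. MITF stood at 657, 663 and 708 in the MeWo control libraries and at 451, 354 and 371 with Dox. In SkMel28 it stood at 861, 739 and 792 without Dox and at 575, 578 and 552 with it. MITF fell to 0.580 of its control mean in MeWo (log2 change −0.79, adjusted p 6.49e-05) and to 0.713 of it in SkMel28 (−0.49, adjusted p 0.00705). MeWo Dox replicate 1 stood apart: replicates correlated at 0.960 to 0.976 across genes in its group and at 0.979 to 0.985 in the others, and without it the number of genes called in MeWo went from 2107 to 3913. All 8 melanocyte markers were listed. Their sum ranged over 13080 to 13277 without Dox and 6706 to 8414 with Dox in MeWo, and over 11490 to 12844 and 7657 to 8001 in SkMel28. The sum includes MITF itself, and PMEL is its largest part (means of 7450 and 3261 in MeWo, 6562 and 2569 in SkMel28). In MeWo all 8 were called (16.7% of all genes), 6 lower and 2 higher, S100B (log2 change 1.96) and DCT (0.91). Among the 6, the groups of TYR (adjusted p 0.0418) and SOX10 (adjusted p 0.0455) overlapped. MeWo Dox replicate 1 showed no fall in them, at 389 for TYR (controls 346 to 398) and 312 for SOX10 (controls 289 to 296). In SkMel28 4 were called (10.9% of all genes), 3 lower and S100B higher (1.14). Of the fibroblast markers 2 of 7 were listed, and their sum was 41.5 to 47.8 without Dox and 9.85 to 19.2 with Dox in MeWo. In SkMel28 it was 10.9 to 13.3 and 6.04 to 8.91. Of the keratinocyte and epithelial markers 2 of 7 were listed (176 to 215 and 171 to 190 in MeWo, 90.8 to 110 and 112 to 117 in SkMel28), and of the endothelial and leukocyte markers 0 of 7. The part of these markers in the results was not tested. In bulk RNA, fewer cells with a transcript and less of it per cell cannot be told apart.

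With Dox, MET fell in both lines and ERBB3 rose in both. AXL and TYRO3 rose in MeWo, KIT fell in SkMel28 and IGF1R rose in SkMel28, while ERBB2 and FGFR1 were called in neither line. Changes are given as log2 of (value + 1), which understates the change of low genes, and a gene was called at a Benjamini-Hochberg adjusted p under 0.05 from limma over all 12616 genes. In MeWo 4 of the 8 members were called, against 16.7% of all genes. Of these 3 were higher and 1 was lower, against 8.58 and 8.12% of all genes in these directions. In SkMel28 4 of the 8 were called, against 10.9% of all genes, with 2 higher (5.88% of all genes) and 2 lower (5.04%). The median log2 change of the members was 0.36 in each line, or 0.34 in SkMel28 with AXL left out because it was at the floor, and the median of all genes was 0.00 in both. Scaling to the spike-ins moved the median of all genes by 0.22 in MeWo and by −0.08 in SkMel28. It changed the MeWo calls over all genes from 1082 higher and 1025 lower to 2097 and 383, and those in SkMel28 from 742 and 636 to 394 and 533. Under it the 4 MeWo member calls stayed at 3 higher and 1 lower, and those in SkMel28 became 0 higher and 2 lower.

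**Figure D1:**
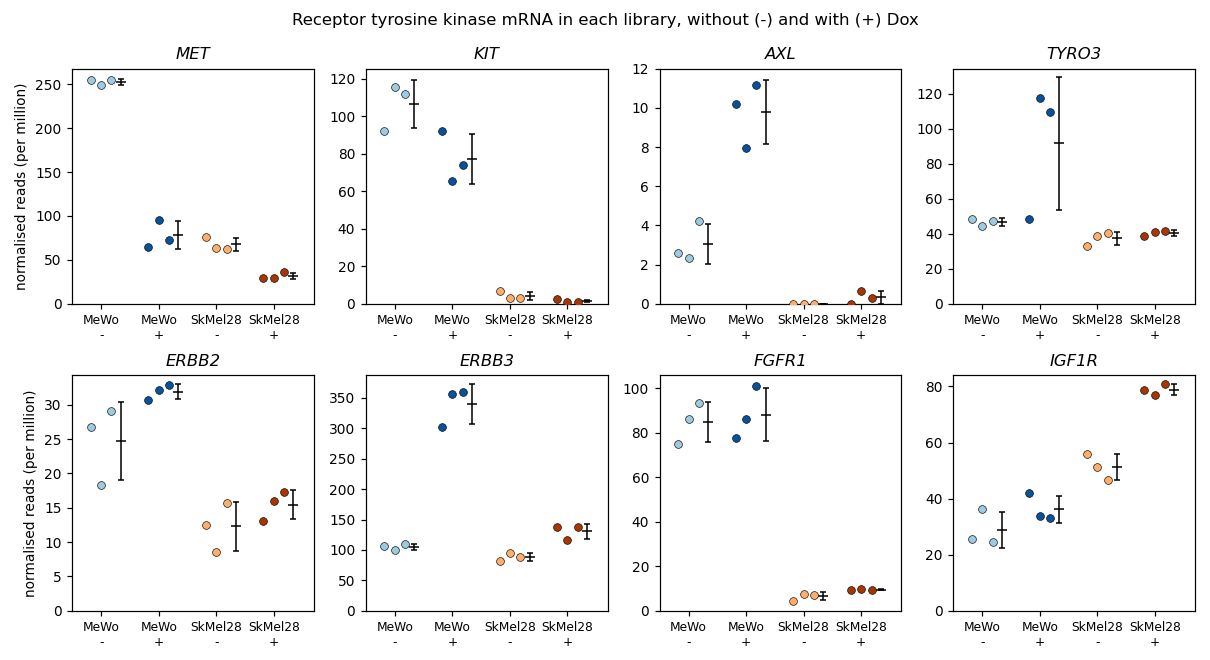
Normalised read values (vertical axes, each from 0) of the 8 listed receptors in the 12 libraries, with − for control and + for Dox. Points are libraries in the order of replicate number, and the bar beside them is the mean ± SD of 3. MET falls from 249 to 255 in MeWo control to 64.8 to 95.9 with Dox, ERBB3 rises from 99.1 to 109 to 302 to 360, and 1 TYRO3 library of MeWo Dox (48.2) lies among the controls.

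MET is the receptor for hepatocyte growth factor and lies on chromosome 7 (116672196 to 116798377, + strand, build hg38). Its MeWo libraries stood at 255, 249 and 255 without Dox and at 64.8, 95.9 and 73.2 with Dox. In SkMel28 the control libraries held 76.0, 63.8 and 62.8 and the Dox libraries 29.7, 29.4 and 36.0. Every Dox library lay under every control library of its line, and the MeWo Dox libraries overlapped the SkMel28 controls. The mean fell by 69.2% in MeWo, from 253 ± 3.61 to 77.9 ± 16.1 (SD, n = 3, log2 −1.70, SE 0.15, adjusted p 3.59e-07). The SkMel28 mean fell by 53.1%, from 67.5 ± 7.35 to 31.7 ± 3.7 (a log2 change of −1.07, SE 0.15, adjusted p 0.000107). Of all genes, 0.579% had a lower change in MeWo and 1.33% in SkMel28. The changes of the lines differed by −0.63 (95% interval −1.07 to −0.20), which was not called at an adjusted p of 0.0693. That difference was called without MeWo Dox replicate 1 (−0.51, adjusted p 0.0486), without MeWo Dox replicate 2 (−0.79, adjusted p 0.0208) and with a pseudocount of 5 (−0.67, adjusted p 0.0424).

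The ligand HGF is not analysed here. MST1, which encodes the ligand of the MET relative MST1R, stood at 11.2 ± 1.30 and 14.5 ± 4.03 in MeWo and at 4.43 ± 1.75 and 5.66 ± 1.55 in SkMel28 without and with Dox. It was not called in either line (adjusted p 0.484 and 0.552). CD44, a surface glycoprotein that can act as a co-receptor of MET, rose in SkMel28 from 367 ± 34.1 to 707 ± 50.3 (a log2 change of 0.95, adjusted p 5.4e-05). In MeWo CD44 stood at 877 ± 12 and 808 ± 139 (−0.13, 95% interval −0.39 to 0.12). The change of CD44 differed between the lines by −1.08 (adjusted p 0.0013), a call lost with scaling to the spike-ins (adjusted p 0.073).

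KIT is the receptor for stem cell factor and is required for melanocyte development (chromosome 4, 54657267 to 54740783, + strand). In MeWo it stood at 91.9, 116 and 112 without Dox and at 91.9, 65.6 and 74.2 with Dox. The SkMel28 libraries held 6.68, 3.17 and 3.07 and at 2.37, 1.00 and 1.21. These SkMel28 values are 24, 10 and 8 reads in the control libraries and 8, 3 and 4 reads in the Dox libraries. In SkMel28 the groups did not overlap, and in MeWo the highest Dox library reached the lowest control. KIT fell in SkMel28 to 0.355 of its control mean (a log2 change of −1.04, SE 0.26, adjusted p 0.0138), a call that rests on few reads. It was lost with a pseudocount of 5 (−0.50, adjusted p 0.0849), with SkMel28 fitted alone (adjusted p 0.0898), without control replicate 1 (−0.74, adjusted p 0.0807), without Dox replicate 2 (−0.89, adjusted p 0.0771) and without Dox replicate 3 (−0.96, adjusted p 0.0505). In MeWo the means were 107 ± 12.9 and 77.2 ± 13.4 (a log2 change of −0.47, 95% interval −1.01 to 0.08, adjusted p 0.235). The changes of the lines differed by 0.58 (−0.19 to 1.35, adjusted p 0.338). KITLG, the gene of stem cell factor, was low in every group, at 3.09 ± 1.49 and 2.02 ± 1.26 in MeWo and 2.15 ± 0.626 and 3.41 ± 1.19 in SkMel28, and was not called (adjusted p 0.42 and 0.468).

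AXL and TYRO3 belong with MERTK to a family of receptors for GAS6 and protein S. AXL (chromosome 19, 41219223 to 41261766, + strand) stood at 2.59, 2.33 and 4.21 in MeWo control and at 10.2, 7.96 and 11.2 in MeWo Dox. These are 9, 6 and 13 reads and 32, 21 and 33 reads, and all Dox libraries lay above all controls. AXL rose 3.21-fold (a log2 change of 1.43, SE 0.28, adjusted p 0.00172), and the call was lost with a pseudocount of 0.1 (1.69, adjusted p 0.0957). In SkMel28 AXL had 0 reads in each of 3 control libraries, which allows a value of up to 0.835 to 1.15 in these libraries, and 0, 2 and 1 reads with Dox. Both SkMel28 groups were at the floor, so no fold is given there. AXL was listed through MeWo alone, since no SkMel28 library reached a value of 1, and every listed gene reaches it in at least 3 libraries.

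TYRO3 (chromosome 15, 41557675 to 41583589, + strand) stood at 48.7, 44.3 and 47.3 in MeWo control and at 48.2, 117 and 109 in MeWo Dox. Dox replicate 1 lay among the controls, and the other two lay far above them. It rose from 46.7 ± 2.24 to 91.7 ± 37.9 (a log2 change of 0.86, SE 0.23, adjusted p 0.0185). Without MeWo Dox replicate 1 the change was 1.26 (adjusted p 8.66e-07). The call was lost without Dox replicate 2 (0.63, adjusted p 0.097), without Dox replicate 3 (0.68, adjusted p 0.101), without control replicate 2 (0.82, adjusted p 0.0734), without control replicate 3 (0.86, adjusted p 0.0568), with no mean-variance trend (adjusted p 0.0546) and with MeWo fitted alone (adjusted p 0.192). In SkMel28 TYRO3 stood at 33.1, 38.7 and 40.2 and, with Dox, at 38.6, 41.1 and 41.4 (a log2 change of 0.11, 95% interval −0.38 to 0.61, adjusted p 0.832). The difference between the lines was 0.74 (0.04 to 1.44, adjusted p 0.172), and it was called without MeWo Dox replicate 1 (1.15, adjusted p 0.000137).

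MERTK, the relative of AXL and TYRO3 that clears dying cells in phagocytes, stood at 23.9, 22.5 and 26.6 in MeWo control and at 43.7, 15.5 and 27.8 in MeWo Dox. In SkMel28 it stood at 4.45, 1.59 and 1.92 and at 15.7, 15.0 and 16.6. The SkMel28 groups did not overlap, while the MeWo Dox libraries lay on both sides of their controls. MERTK rose in SkMel28 (a log2 change of 2.28, SE 0.31, adjusted p 0.000106) and was not called in MeWo (0.13, 95% interval −0.53 to 0.79). The changes differed between the lines by −2.15 (adjusted p 0.0077), a call held under all 22 alternatives. GAS6, the ligand of all of this family, stood at 3.98 ± 1.44 and 6.17 ± 1.62 in MeWo (adjusted p 0.205) and rose in SkMel28 from the floor to 2.38 ± 0.039, at least 2.07-fold (adjusted p 0.0314). That GAS6 call was lost under 10 of 23 alternatives. PROS1, which encodes protein S, stood at 40.4 ± 2.17 and 51.4 ± 8.45 in MeWo and at 46.3 ± 5.87 and 59.9 ± 3.52 in SkMel28 (adjusted p 0.147 and 0.132).

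**Figure D2:**
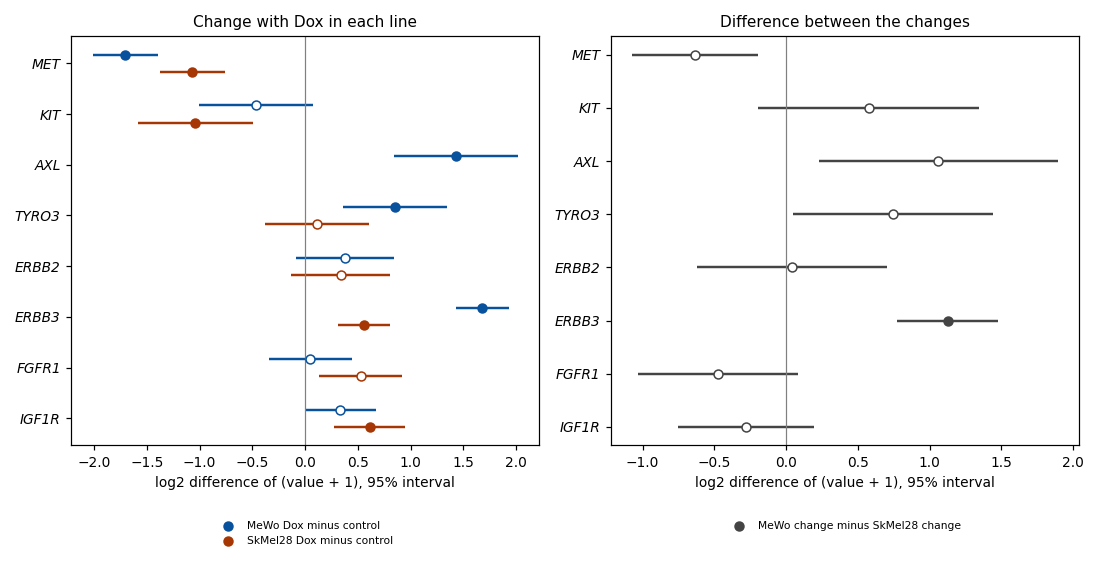
Left, log2 change of (value + 1) with Dox for each receptor in MeWo (blue) and SkMel28 (brown), and right, the MeWo change minus the SkMel28 change, each with its 95% interval on the horizontal axis. Filled points were called and open points were not, and AXL in SkMel28 is left out because both groups were at the floor. MET lies left of 0 in both lines (−1.70 and −1.07), ERBB3 lies right of it in both (1.68 and 0.56), and ERBB3 alone is filled on the right (1.13).

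ERBB3 is the neuregulin receptor with an almost inactive kinase, and it signals through partners such as ERBB2 (chromosome 12, 56076799 to 56103505, + strand). In MeWo ERBB3 stood at 107, 99.1 and 109 without Dox and at 302, 357 and 360 with Dox. In SkMel28 it stood at 81.9, 94.2 and 88.9 and at 138, 117 and 137. The groups did not overlap in either line, and every MeWo Dox library lay above every other library. ERBB3 rose in MeWo from 105 ± 5.23 to 339.6 ± 32.9 (a log2 change of 1.68, SE 0.12, adjusted p 2.86e-08), and 99% of all genes had a lower change. It rose in SkMel28 from 88.3 ± 6.21 to 130.4 ± 11.9 (a log2 change of 0.56, SE 0.12, adjusted p 0.00457), a call lost with scaling to the spike-ins (0.46, adjusted p 0.122). The rise was larger in MeWo by 1.13 (SE 0.17, 95% interval 0.78 to 1.48, adjusted p 0.000717), and this held under all 22 alternatives (1.01 to 1.5, adjusted p up to 0.00916).

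ERBB2, the partner kinase with no ligand of its own, lies on chromosome 17 (39687914 to 39730426, + strand). It stood at 26.8, 18.3 and 29.1 in MeWo control and at 30.6, 32.2 and 32.9 in MeWo Dox. SkMel28 values were 12.5, 8.57 and 15.7 and at 13.1, 16 and 17.2. The MeWo groups did not overlap, and those of SkMel28 did. ERBB2 was not called in MeWo (a log2 change of 0.38, 95% interval −0.09 to 0.85, adjusted p 0.262) or in SkMel28 (0.34, −0.13 to 0.81, adjusted p 0.391), and the changes differed by 0.04 (−0.62 to 0.70). MIEN1 runs on the other strand and overlaps the 3′ end of ERBB2. The strand used for counting is not given in the sources used here, so reads of the overlap cannot be told apart. MIEN1 stood at 34.1 ± 1.33 and 26.6 ± 6.66 in MeWo and at 30.8 ± 1.12 and 27.5 ± 0.215 in SkMel28 (adjusted p 0.136 and 0.641).

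Among ligands of the ERBB family, HBEGF and TGFA, which bind EGFR, rose in SkMel28. HBEGF went from 7.78 ± 1.01 to 25.8 ± 2.99 (a log2 change of 1.61, adjusted p 0.000884) and TGFA from 1.25 ± 1.14 to 6.52 ± 0.170 (a log2 change of 1.85, adjusted p 0.00184). In MeWo HBEGF stood at 5.44 ± 2.48 and 6.44 ± 0.919 (a log2 change of 0.29, 95% interval −0.30 to 0.88), and the difference between the lines just missed the threshold (−1.32, adjusted p 0.0504). TGFA rose in MeWo from the floor to 1.97 ± 0.850, at least 1.69-fold (adjusted p 0.0343), a call lost under 6 of 23 alternatives. The neuregulin gene NRG3 fell in SkMel28 from 12.3 ± 1.28 to 4.66 ± 2.36 (a log2 change of −1.33, adjusted p 0.0203), also lost under 6 of 23. NRG1, a ligand of ERBB3, had 0 reads in all 6 MeWo libraries and stood at 1.61 ± 1.06 and 1.90 ± 0.971 in SkMel28 (adjusted p 0.79). ERBB4, a further neuregulin receptor, was at the floor in MeWo control, stood at 1.48 ± 0.482 in MeWo Dox and had 0 reads in all 6 SkMel28 libraries. It was listed through the 3 MeWo Dox libraries alone, so a difference was built in and its call is no test.

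FGFR1 is a receptor for fibroblast growth factors (chromosome 8, 38400215 to 38468834, − strand). In MeWo it stood at 75.2, 86.3 and 93.3 without Dox and at 77.6, 86.0 and 101 with Dox. SkMel28 libraries held 4.45, 7.62 and 7.28 and at 9.50, 9.69 and 9.37. These SkMel28 values are 16, 24 and 19 reads and 32, 29 and 31 reads. The MeWo groups overlapped along most of their range, and those of SkMel28 did not overlap. In MeWo FGFR1 was not called (a log2 change of 0.05, 95% interval −0.34 to 0.44, adjusted p 0.894), and the sign turned with quantile normalization (−0.01). In SkMel28 it was not called either (0.53, 0.13 to 0.92, adjusted p 0.0846). The changes of the lines differed by −0.48 (−1.03 to 0.08, adjusted p 0.272). LETM2 overlaps the 3′ end of FGFR1 on the other strand, and its reads there cannot be told apart from those of FGFR1. LETM2 stood at 1.66 ± 0.330 and 2.57 ± 1.66 in MeWo and at 0.698 ± 0.602 and 0.435 ± 0.514 in SkMel28.

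The ligand gene FGF1 was at the floor in MeWo control and stood at 2.97 ± 0.377 in MeWo Dox. Outside MeWo Dox it reached a value of 1 in 1 library, so it was listed only with the group where it is high, and its call is no test. FRS2, the adaptor that couples FGF receptors to RAS, rose in SkMel28 from 3.60 ± 0.518 to 7.72 ± 1.55 (a log2 change of 0.91, adjusted p 0.0248), a call lost under 6 of 23 alternatives. SPRED1, which restrains RAS after receptor activation, rose in SkMel28 from 41.7 ± 4.27 to 80.9 ± 2.45 (a log2 change of 0.94, adjusted p 0.00121). In MeWo SPRED1 stood at 45.9 ± 3.85 and 45.7 ± 13.0 (−0.04, 95% interval −0.39 to 0.32). The SPRED1 changes differed by −0.98 (adjusted p 0.02), a call lost under 7 of 22 alternatives.

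IGF1R is the receptor for insulin-like growth factors (chromosome 15, 98648539 to 98964530, + strand). In MeWo it stood at 25.6, 36.1 and 24.6 without Dox and at 41.8, 33.7 and 33.2 with Dox. In SkMel28 it stood at 56.0, 51.1 and 46.8 and at 78.7, 76.9 and 81.0. The SkMel28 groups did not overlap, and 1 MeWo control library lay among the Dox libraries. IGF1R rose in SkMel28 from 51.3 ± 4.61 to 78.8 ± 2.06 (a log2 change of 0.61, SE 0.16, adjusted p 0.0184). The call was lost with scaling to the spike-ins (0.52, adjusted p 0.179), and without control replicate 2 (0.61), control replicate 3 (0.55), Dox replicate 1 (0.62), Dox replicate 2 (0.63) or Dox replicate 3 (0.60), with adjusted p between 0.0511 and 0.0909. In MeWo it was not called (0.34, 95% interval 0.00 to 0.67, adjusted p 0.164). The changes of the lines differed by −0.28 (−0.75 to 0.20, adjusted p 0.461), with the sign turned by scaling to the spike-ins (0.08).

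INSR, the insulin receptor, stood at 77.9 ± 14.2 and 72.1 ± 8.77 in MeWo and at 31.5 ± 5.79 and 38.9 ± 3.62 in SkMel28, and was not called (adjusted p 0.747 and 0.294). Of the adaptors of this pair of receptors, IRS1 was not called in either line (adjusted p 0.986 and 0.363). IRS2 rose in SkMel28 from 204 ± 21.8 to 442 ± 10.7 (a log2 change of 1.11, adjusted p 3.17e-06). In MeWo IRS2 stood at 479.5 ± 4.63 and 556 ± 57.2 (0.21, 95% interval −0.02 to 0.44). The IRS2 changes differed by −0.90 (adjusted p 0.00183), a call lost with scaling to the spike-ins (adjusted p 0.167). IGFBP3, which binds insulin-like growth factors outside the cell, moved in opposite directions. It stood at 8.06, 9.71 and 7.77 in MeWo control, at 4.15, 3.79 and 1.35 in MeWo Dox, at 17.5, 13.3 and 16.1 in SkMel28 control and at 46.6, 42.8 and 45.3 in SkMel28 Dox. IGFBP3 fell in MeWo (a log2 change of −1.29, adjusted p 0.00219) and rose in SkMel28 (1.47, adjusted p 0.00108), and the difference of −2.76 (adjusted p 0.000263) was called under all 22 alternatives. The MeWo fall was not called with MeWo fitted alone (adjusted p 0.0858). The growth factor genes IGF1 and IGF2 are not analysed here.

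Between the lines, SkMel28 held less MET, KIT, AXL, ERBB2 and FGFR1 than MeWo and more IGF1R, and with Dox it held less TYRO3 and ERBB3 as well. Without Dox 6 of the 8 members were called between the lines, against 51.4% of all genes, with 1 higher in SkMel28 (26.6% of all genes) and 5 lower (24.8%). With Dox 8 of 8 were called, against 53.6% of all genes, with 1 higher (28%) and 7 lower (25.6%). The median difference of the members was −1.43 without Dox, or −1.19 with AXL at its bound, and −1.32 with Dox, while the median of all genes was 0.00 and 0.04. AXL is among the called members in both counts, but it had to differ, since it was listed through MeWo alone, and its calls are no test. Scaling to the spike-ins moved the median of all genes by 0.13 and −0.20 and gave the same split of member calls. Over all genes it changed the calls without Dox from 3352 higher and 3133 lower to 3630 and 2231, and those with Dox from 3533 and 3233 to 2507 and 3826.

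KIT in SkMel28 was 0.0404 of its MeWo level without Dox (a log2 change of −4.40, adjusted p 2.5e-10) and 0.0198 of it with Dox (−4.98, adjusted p 5.6e-11). FGFR1 was 0.076 of its MeWo level without Dox (−3.55, adjusted p 6.32e-11) and 0.108 of it with Dox (−3.08, adjusted p 3.96e-10). Both genes had all 6 SkMel28 libraries far under all 6 MeWo libraries. MET was lower in SkMel28 by −1.89 without Dox (adjusted p 9.65e-09) and by −1.26 with Dox (adjusted p 1.46e-06). AXL was at least 2.65-fold lower in SkMel28 without Dox and at least 9.76-fold lower with Dox, a difference built in by its listing through MeWo. ERBB2 differed by −0.97 (adjusted p 0.00148) and −1.01 (adjusted p 0.000978). IGF1R was higher in SkMel28 in both states, by 0.83 (adjusted p 0.000322) and 1.11 (adjusted p 1.59e-05).

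For TYRO3 and ERBB3 the lines were close without Dox. TYRO3 differed by −0.32 without Dox (95% interval −0.81 to 0.17, adjusted p 0.266) and by −1.06 with it (adjusted p 0.00101). ERBB3 differed by −0.25 without Dox (−0.49 to 0.00, adjusted p 0.0881) and by −1.37 with it (adjusted p 3.27e-08). Without MeWo Dox replicate 1 the control differences of TYRO3 (adjusted p 0.0281) and ERBB3 (adjusted p 0.0394) were called at unchanged size, and that of ERBB3 was also called with quantile normalization (−0.33, adjusted p 0.0195). All 8 differences with Dox were called under all 22 alternatives, though that of AXL was built in by its listing.

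**Figure D3:**
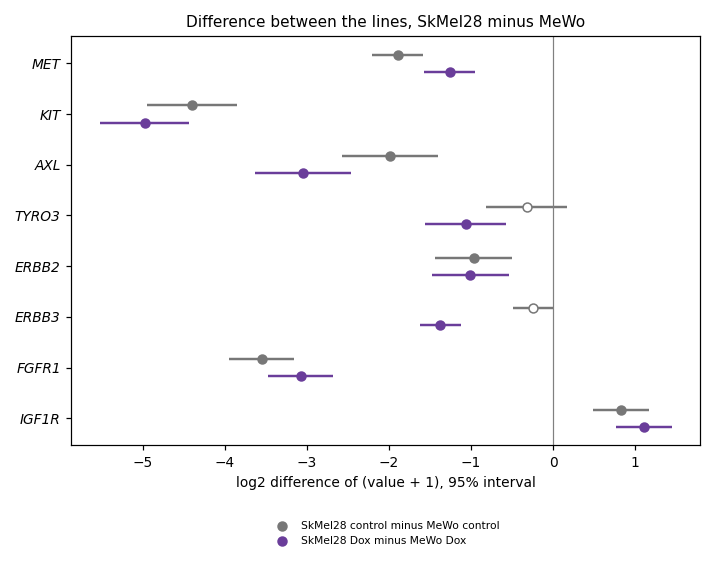
Log2 difference of (value + 1) between the lines, SkMel28 minus MeWo, without Dox (grey) and with Dox (purple), with 95% intervals on the horizontal axis. Filled points were called and open points were not, and the AXL points are fitted values against a group at the floor and set no bound. KIT (−4.40 and −4.98) and FGFR1 (−3.55 and −3.08) lie farthest left, and IGF1R alone lies right of 0.

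The changes with Dox were set against each other between the lines with the interaction, the MeWo change minus the SkMel28 change. ERBB3 was the 1 member of 8 called, against 7.09% of all genes, and it was higher (3.71% of all genes), with 0 lower (3.38%). The median of the members was 0.31 and that of all genes −0.02. Scaling to the spike-ins moved the median of all genes by 0.32 and called 3 members, all higher, with AXL (1.31, adjusted p 0.0488) and TYRO3 (1.11, adjusted p 0.0298) beside ERBB3. Over all genes it changed the calls from 468 higher and 426 lower to 1360 and 159. Without MeWo Dox replicate 1 the interaction called 3 members, with 2 higher and 1 lower, in a fit that called 24.7% of all genes (12.8% higher and 11.9% lower). For AXL the interaction was 1.06 (95% interval 0.23 to 1.89, adjusted p 0.106), of which the SkMel28 side rests on 0 to 2 reads per library, and its sign was negative under edgeR on the recovered reads (−1.44, adjusted p 0.472).

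The rest of the pathway was described from lists of genes by role, set against the 16.7 and 10.9% of all genes called in MeWo and SkMel28. Of 48 other receptor tyrosine kinase genes, 21 were listed. In MeWo 10 of these were called (ERBB4, listed through MeWo Dox alone, among them), with 8 higher and 2 lower and a median of 0.50, and in SkMel28 6 were called, with 5 higher and 1 lower and a median of 0.24 (0.31 with genes at the floor set to their bound or left out). EPHB3, a receptor for ephrin-B ligands, rose in both lines. It stood at 0.288, 0 and 0.648 in MeWo control and at 12.1, 15.2 and 15.6 in MeWo Dox, at least 12.3-fold higher (adjusted p 1.51e-07). In SkMel28 EPHB3 stood at 2.51, 1.59 and 1.15 and at 12.2, 16 and 20.9 (a log2 change of 2.66, adjusted p 8.41e-06). EPHB3 had the largest rise of this list in each line, and its libraries did not overlap.

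AATK, a membrane kinase of the lemur family, was abundant in MeWo and rose there from 525 ± 23.0 to 1525 ± 219.6 (a log2 change of 1.53, adjusted p 1.34e-06). In SkMel28 AATK stood at 11.2 ± 2.37 and 12.5 ± 1.43 (0.16, adjusted p 0.579), and the changes differed by 1.37 (adjusted p 0.00098). EPHA3, an ephrin-A receptor, rose in MeWo from 7.25 ± 2.0 to 35.0 ± 12.9 (a log2 change of 2.09, adjusted p 0.00033). FLT1, a receptor of vascular endothelial growth factor, rose in SkMel28 from 1.88 ± 0.547 to 12.1 ± 2.21 (a log2 change of 2.19, adjusted p 0.000102). In MeWo FLT1 rose from the floor to 1.73 ± 0.895, at least 1.48-fold (adjusted p 0.0248), a call lost under 7 of 23 alternatives. DDR1, a collagen receptor, rose in MeWo from 88.1 ± 10.5 to 170.3 ± 45.7 (a log2 change of 0.91, adjusted p 0.0058). EPHA4 fell in both lines, from 3.51 ± 1.34 to 0.592 ± 0.570 in MeWo, at least 3.08-fold (adjusted p 0.00192), and from 8.29 ± 1.14 to 2.69 ± 0.324 in SkMel28 (a log2 change of −1.33, adjusted p 0.00784). The EPHA4 and DDR1 calls in MeWo were lost with MeWo fitted alone, and the EPHA4 call in SkMel28 with a pseudocount of 0.1.

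Of 29 ligand genes, 16 were listed. In MeWo 2 were called (FGF1, listed only with MeWo Dox, among them), both higher, with a median of 0.32, and in SkMel28 4 were called, with 3 higher and 1 lower and a median of 0.35. They are FGF1 and TGFA in MeWo and TGFA, HBEGF, GAS6 and NRG3 in SkMel28, with the values given above. Of 21 adaptors and first relays, all were listed. In MeWo 1 was called and in SkMel28 4, with 3 higher and 1 lower, and the medians were 0.11 and 0.10. STAT3, a transcription factor that receptors and cytokines activate, rose in MeWo from 60.8 ± 4.56 to 149 ± 51.2 (a log2 change of 1.22, adjusted p 0.00141). In SkMel28 STAT3 stood at 42.5 ± 9.69 and 39.6 ± 9.75 (−0.11), and the changes differed by 1.33 (adjusted p 0.0219). That difference was lost under 7 of 22 alternatives (adjusted p up to 0.0705), and the STAT3 call in MeWo was lost with MeWo fitted alone (adjusted p 0.051). The docking proteins GAB1 and GAB2 went apart in SkMel28. GAB1 rose from 8.07 ± 0.689 to 15.2 ± 1.69 (a log2 change of 0.84, adjusted p 0.0446), a call lost under 12 of 23 alternatives, and GAB2 fell from 225 ± 27.4 to 154 ± 5.98 (−0.54, adjusted p 0.00961), lost under 3 of 23.

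Of 26 attenuators, 22 were listed. In MeWo 4 were called, with 3 higher and 1 lower and a median of −0.04, and in SkMel28 3 were called, with 2 higher and 1 lower and a median of 0.34. PTPN1, the phosphatase that acts on the insulin receptor and other receptor kinases, fell in MeWo from 566 ± 20.9 to 301 ± 6.13 (a log2 change of −0.91, adjusted p 5.45e-06). In SkMel28 PTPN1 stood at 485.5 ± 37.3 and 401 ± 24.2 (−0.27, adjusted p 0.0931), and the changes differed by −0.63 (adjusted p 0.0124), which was not called with scaling to the spike-ins (adjusted p 0.528) or with no mean-variance trend (adjusted p 0.068). SH2B3, an adaptor that restrains KIT and cytokine receptors, fell in SkMel28 from 36.7 ± 4.95 to 19.3 ± 1.45 (a log2 change of −0.89, adjusted p 0.00344). In MeWo SH2B3 stood at 9.67 ± 0.382 and 12 ± 1.61, and the changes differed by 1.16 (adjusted p 0.012). The Sprouty gene SPRY2 (log2 change 0.67, adjusted p 0.0321, lost under 7 of 23 alternatives) and the receptor-type phosphatase gene PTPRJ (0.64, adjusted p 0.0177, lost under 5 of 23) rose in MeWo. PTPRF, another phosphatase of that type, rose in both lines. It went from 19.2 ± 2.07 to 35.4 ± 10.2 in MeWo (adjusted p 0.00588), a call lost with MeWo fitted alone (adjusted p 0.116). In SkMel28 it went from 68.2 ± 8.56 to 109 ± 4.85 (adjusted p 0.0249, lost under 8 of 23 alternatives).

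Of 21 co-receptors and ligand binding proteins, 18 were listed. In MeWo 7 were called, with 6 higher and 1 lower and a median of 0.42. Of the 6, NRP1 had 0 reads in the MeWo controls and was listed through the 3 MeWo Dox libraries alone, so its call is no test. In SkMel28 6 were called, all higher, with a median of 0.34. IGFBP7, a secreted binding protein, rose from 14.0 ± 2.26 to 34.3 ± 14.5 in MeWo (a log2 change of 1.15, adjusted p 0.00706) and from 58.5 ± 15.7 to 114 ± 24.3 in SkMel28 (0.95, adjusted p 0.0306, lost under 6 of 23 alternatives). GPC1, a heparan sulphate proteoglycan that holds growth factors at the surface, rose in MeWo from 20.5 ± 3.61 to 46.1 ± 4.26 (a log2 change of 1.14, adjusted p 0.000153). SDC3, a syndecan proteoglycan, rose in MeWo as well (log2 change 0.61, adjusted p 0.00633). The IGFBP7 and SDC3 calls in MeWo were lost with MeWo fitted alone (adjusted p 0.118 and 0.0588). The GPC1 relative GPC4 rose in SkMel28 from 4.77 ± 0.480 to 12 ± 2.78 (1.16, adjusted p 0.00327). Without MeWo Dox replicate 1 the counts called in MeWo were 10 other receptors, 2 ligands, 6 relays, 8 attenuators and 11 co-receptors and binding proteins, in a fit that called 31% of all genes. Without it those in SkMel28 were 7, 4, 5, 8 and 8 in the same order, against 16.2% of all genes.

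**Figure D4:**
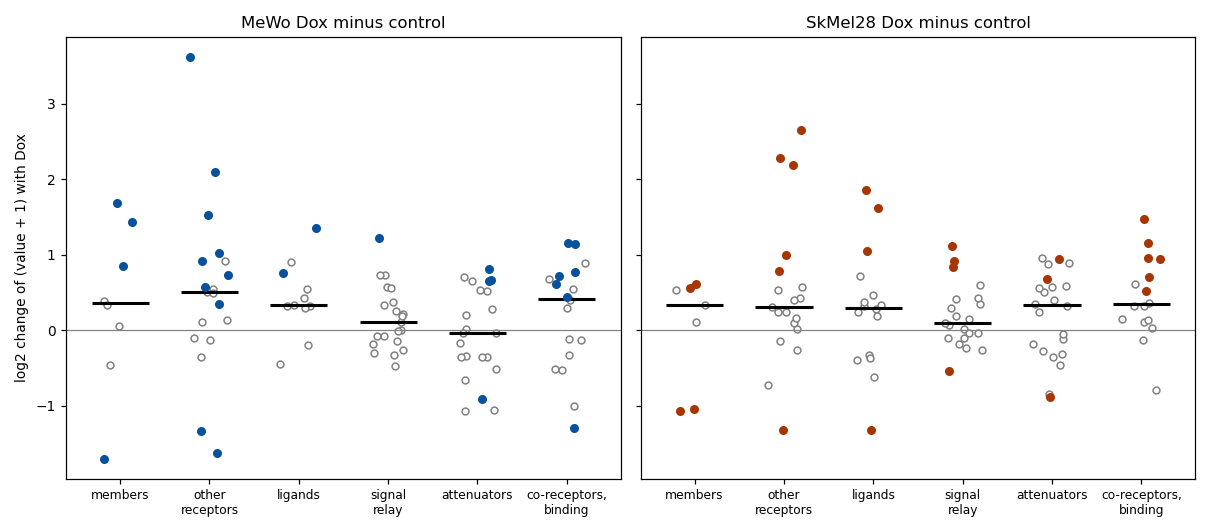
Log2 change of (value + 1) with Dox in MeWo (left) and SkMel28 (right) for each listed gene of the members and of 5 pathway lists, with the median as a bar. Filled points were called, open points were not, genes with 1 group at the floor are drawn at their bound, and genes at the floor in both groups are left out. The other receptors spread widest, from EPHA4 below 0 to EPHB3 at least 12.3-fold higher in MeWo, and the medians of the adaptors (0.11 and 0.10) lie close to 0.

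The genes whose values followed each receptor most closely over the 12 libraries are named by Pearson r of log2(value + 1), as a description over libraries that share line and treatment. For MET they were UBAP1L (0.987), HSP90AA1 (0.986) and PEBP1 (0.984). For ERBB3 they were UBD (0.974), PLK2 (0.973) and PCBP4 (0.972), and for TYRO3 they were CHMP3 (0.981), PLEKHM2 (0.975) and PACSIN3 (0.971). For KIT they were POMP (0.994), GLUL (0.992) and CLNS1A (0.992), and for FGFR1 they were CTTN (0.994), SRSF5 (0.990) and FAM20C (0.990). KIT and FGFR1 were both far lower in SkMel28. For IGF1R they were ADAM19 (0.976), SPARC (0.974) and EXT2 (0.971), and for ERBB2 a row with a date-like symbol (0.953), SMARCD3 (0.950) and KCNG1 (0.947). AXL did not reach a mean of 10 in any group and was not compared in this way.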

How the data were processed

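RNA was measured by 3′ end sequencing (QuantSeq Forward) in 12 libraries, 3 in each of 4 groups. The authors deposited 1 table with a normalised signal per gene. Tools named in the submitters' processing notes are FastQC 0.11.7, cutadapt 2.8, STAR 2.5.1b and edgeR, with build hg38. The counting tool, annotation and strand setting are not given in the sources used here. It holds 12683 features (67 spike-ins and 12616 genes), and every one reaches a value of 1 in 3 or more libraries. In every library 100% of values were whole multiples of 1 step (tolerance 0.01 reads), which gave whole reads, and trimmed-mean factors recomputed with edgeR 4.0.16 differed from the authors' factors by at most 7.12e-12. Depth was 2568187 to 3714608 reads per library, and it limits genes with few reads most.

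Log2(value + 1) was fitted with limma 3.58.1 (R 4.3.3, eBayes with trend) over 4 group means, with two-sided tests and Benjamini-Hochberg adjustment over 12616 genes. The study used edgeR on counts, and a log-scale test was the main one here because the deposited values are normalised. The scripts were tested on simulated data. P-values measure the spread between libraries, since the labels do not say that replicates were separate cultures. As alternatives, the recovered reads were tested with edgeR (quasi-likelihood), which called 2045 genes in MeWo and 1422 in SkMel28, and with DESeq2 1.42.0 (1871 and 1298). Others were normalization by quantiles or the upper quartile, scaling to the spike-ins, pseudocounts (0.1 or 5), a filter on low values (5 or more in 3 libraries, which keeps 10368 genes), no trend, a replicate block, each line fitted alone and each library left out. The deposited table holds the authors' low-value filter already, so no lower filter could be tried.

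The members and gene lists were chosen with earlier results of these data known. From each list and line, up to 3 rises and 3 falls were named among called genes whose Dox and control libraries did not overlap and whose higher group mean reached 10. Named outside that rule, after their values were seen, were genes that bind, adjoin or relay the members (such as KITLG, PROS1, INSR, IRS1, CD44 and MIEN1), genes with lower means (such as EPHA4, FGF1, ERBB4, NRP1 and TGFA) and DDR1. Coordinates are from GENCODE 44 (hg38), and promoter windows are from RefSeq.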

Additional observations from a re-analysis of the deposited data

Results flagged for a closer look

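The change with Dox differed between MeWo and SkMel28 by the interaction test for 1 of 8 members and 14 of 98 listed genes of the pathway lists, against 7.09% of all genes. All values are the MeWo change minus the SkMel28 change in log2(value + 1), with adjusted p from limma. ERBB3, the neuregulin receptor, rose more in MeWo by 1.126 (adjusted p 0.000717), and all 3 MeWo Dox libraries lay above every other library. Among other receptors the difference was −2.149 for MERTK (adjusted p 0.0077), −1.479 for EPHA5 (adjusted p 0.0228) and 1.368 for AATK (adjusted p 0.00098). EPHA5 fell in MeWo from a mean of 7.36 to 2.29. Its SkMel28 side rests on 4, 1 and 1 reads without Dox and 2, 3 and 2 with it, which left little room for a fall there. Among ligands it was 1.527 for PDGFC (adjusted p 0.0449), which was not called in either line and was lost under 13 of 20 alternatives.

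Among adaptors and relays the difference was −0.9047 for IRS2 (adjusted p 0.00183), −1.316 for GAB1 (adjusted p 0.0374), 0.6485 for GAB2 (adjusted p 0.0368) and 1.326 for STAT3 (adjusted p 0.0219). Among attenuators it was −0.6344 for PTPN1 (adjusted p 0.0124), 1.161 for SH2B3 (adjusted p 0.012) and −0.9796 for SPRED1 (adjusted p 0.02). Among co-receptors and binding proteins it was −2.762 for IGFBP3 (adjusted p 0.000263), −1.081 for CD44 (adjusted p 0.0013) and 0.8218 for GPC1 (adjusted p 0.0486). The GPC1, GAB2, GAB1, EPHA5, STAT3 and SPRED1 calls were lost under 14, 13, 12, 9, 7 and 7 of their 21 or 22 alternatives, those of PTPN1, CD44 and IRS2 under 2, 1 and 1, and those of ERBB3, MERTK, AATK, SH2B3 and IGFBP3 under none.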

How the results depend on the processing

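Of the member results, 174 of 184 comparisons with an alternative kept direction and side of the threshold in MeWo, 172 of 184 in SkMel28, 163 of 175 for the interaction, and 173 of 176 and 176 of 176 between the lines without and with Dox. In part these shares were fixed. The change within a line cannot move when a library of the other line is left out, with no trend, with a replicate block or with the line fitted alone. There only the adjusted p can move. Between the lines the AXL difference was built in. The MET and ERBB3 changes in MeWo and the MET change in SkMel28 were called under all 23 alternatives. The number of genes called in MeWo moved from 2107 to 813 with each line fitted alone, and to 1281 to 3913 with a library left out. In SkMel28 the members called went from 4 to 2 on the spike-in scale and to 2 to 4 with a library left out, while the genes called went from 1378 to 784 to 2042. For the interaction, the members called went from 1 to 3 on the spike-in scale and at a pseudocount of 5, and to 1 to 3 with a library left out. The genes called by the interaction went from 894 to 1519 on the spike-in scale, to 554 with no mean-variance trend and to 449 to 3115 with a library left out. The largest counts came without MeWo Dox replicate 1.

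Direction turned for results that were not called. FGFR1 in MeWo went from 0.05 to −0.011 with quantile normalization, and ranged from −0.049 to 0.14 with a library left out (below 0 without MeWo control replicate 1 or MeWo Dox replicate 3). In the interaction, AXL went to −1.44 under edgeR, IGF1R to 0.082 on the spike-in scale, and ERBB2 from 0.04 to between −0.15 and 0.26 with a library left out (below 0 without MeWo control replicate 2, SkMel28 control replicate 3 or SkMel28 Dox replicate 1). The AXL interaction had no adjusted p under DESeq2 and is not counted there. The cause was not tested.

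With a replicate block, 4, 4, 1, 6 and 8 members and 1821, 1070, 641, 6371 and 6632 genes were called in the 5 comparisons (MeWo, SkMel28, interaction, lines without and with Dox), and it changed no member call. Deviations of same-numbered libraries correlated at −0.30, −0.07 and 0.05 in MeWo and at −0.10, 0.12 and 0.29 in SkMel28. Those of differently numbered libraries ranged from −0.35 to 0.34. The values show no pairing by number, but with 3 libraries per group they cannot exclude it. KIT in SkMel28, AXL in both lines and FGFR1 in SkMel28 rest on at most 33 reads per library, which limits what could be detected.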
